A study of Mus musculus with 12 samples.

Results

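Mitochondria join and divide, and 9 genes whose proteins drive or control these steps are described here in developing mouse muscle. They are *Mfn1*, *Mfn2*, *Opa1*, *Oma1*, *Dnm1l*, *Fis1*, *Mff*, *Mief1* and *Mief2*, given as a list of symbols and matched to the Ensembl identifiers of the count table. All 9 were found among its 55450 genes, and all 9 passed the filter on low counts that left 19276 genes to test. The tibialis anterior (TA), a muscle at the front of the lower leg, was taken from wild-type (WT) mice of the 129Pas background (129SvPas in the methods) at E18.5 (an embryonic stage shortly before birth), at 2 weeks (wks) and at 7 wks of age. Each age had 4 mice with a library each, 12 libraries in all. No group carried a transgene or a treatment, so that the groups differ by age, and with it by birth and by everything that changes in the muscle between these ages. The series was made to follow splicing in muscle after birth, and here only the reads summed over each gene were used.

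Mitochondria form a changing network in which fusion mixes the contents of single organelles and fission cuts the network into pieces that can be moved or removed. The mitofusins MFN1 and MFN2 are GTPases that join the outer membranes, OPA1 is a GTPase that joins the inner membranes and shapes the cristae, and OMA1 is an inner membrane protease that cuts OPA1 under stress. Fission is carried out by the dynamin-related GTPase DRP1, the product of *Dnm1l*, which is recruited from the cytosol by the outer membrane proteins FIS1, MFF, MiD51 (*Mief1*) and MiD49 (*Mief2*). In muscle fibres mitochondria lie in ordered rows between the myofibrils and below the membrane, and this order is built up after birth.

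The promoters of the members are shown first, as a description. Of the 9 genes 5 rose from E18.5 to 2 wks under every scaling used below and the others did not. The RefSeq table of GRCm38.p6 held 14 promoter windows for 9 of 9 members, each with 250 bases before and 50 after a start. They were searched on both strands for the letters TNAAGGTCA (a site bound by oestrogen-related receptors), GCGCATGC (the core of the NRF-1 site) and CCGGAAGT (a site of ETS factors), factors known to bind promoters of genes for mitochondrial proteins. No member window held the first (0 of 14, against 1.28% of all 32851 windows), 1 held the second (2.71% of all) and 4 held the third (3.89% of all). Capitals mark the matches, and all stretches read 5′ to 3′ on the strand of the gene. *Mief2* and *Mfn2* are shown as the gene with the largest rise and the most abundant gene after birth, *Fis1* as an adaptor gene that rose with *Mief2*, and *Mief1* as the paralogue of *Mief2* that passed in no comparison with the same scaling. *Mfn1* and *Opa1* are shown for their matches.
Mief2, 100 bases before the start, chr11:60728298-60728397, plus strand: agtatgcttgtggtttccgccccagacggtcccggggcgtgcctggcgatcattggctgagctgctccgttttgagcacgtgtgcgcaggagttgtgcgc
Mfn2, 100 bases before the start, chr4:147904910-147905009, minus strand: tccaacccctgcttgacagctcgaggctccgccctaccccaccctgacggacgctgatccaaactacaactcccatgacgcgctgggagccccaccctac
Fis1, 100 bases before the start, chr5:136953175-136953274, plus strand: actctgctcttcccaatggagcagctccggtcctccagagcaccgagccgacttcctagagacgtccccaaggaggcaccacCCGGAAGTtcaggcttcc
Mief1, 30 bases around the first match, chr15:80234004-80234033, plus strand: ggaggggccgaCCGGAAGTgcttccgcctc
Mfn1, 30 bases around the match, chr3:32529427-32529456, plus strand: gatccgaagcgCCGGAAGTagccgccccta
Opa1, 30 bases around the match, chr16:29579265-29579294, plus strand: gtggctccccGCGCATGCGCatgtcatccg

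The ETS letters began 18 bases before the start of *Fis1*, 44 before that of *Mfn1* and 65 before that of *Mief1*. A further match began 12 bases after the start in the *Mief1* window, and another 20 bases after it in a second window of *Fis1*. In *Opa1* the NRF-1 core began 59 and, on the other strand, 57 bases before the start, 2 overlapping matches that share most of their letters. The stretches shown of *Mief2* and *Mfn2* held none of the 3 motifs. *Fis1* and *Mief1*, of which the first rose and the second did not pass, thus both held the ETS letters, and *Mief2* and *Mief1* differed in them. A link between these letters and the changes with age was not tested.

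Raw read counts on each gene were deposited, with totals of 63018968 to 123449246 per library. Members had between 1365 and 62413 counts in a library, and counting error was not compared with the spread between mice. The share of the 20 most abundant genes lay between 8.38% and 11.3% before birth, between 32.2% and 35.3% at 2 wks and between 36.3% and 37.7% at 7 wks. Because a few genes took so much of the later libraries, CPM values (counts divided by library size) were scaled with the TMM method of edgeR, which sets the bulk of genes to about no change. The median log2 fold change of all genes was -0.09 from E18.5 to 2 wks, -0.03 from 2 to 7 wks and -0.09 from E18.5 to 7 wks with TMM, and -1.02, -0.38 and -1.37 when libraries were scaled to their total counts. The 6 markers of muscle fibres summed to between 7100 and 14360 CPM before birth, 74820 and 106800 CPM at 2 wks, and 84980 and 120800 CPM at 7 wks, so muscle fibre RNA was present at each age, and none of them was at 0. These genes mark muscle fibres and cannot tell the TA from another muscle. Before birth the 6 markers of fibroblasts summed to a similar 5963 to 12270 CPM. One library stood apart, E18.5 replicate 1, in how its counts followed the GC content of the genes. At the GC content of *Dnm1l* this trend raised its log2 level by 0.672, against 0.035 to 0.287 in the other E18.5 libraries, and at that of *Mief2* it lowered it by 0.951 (-0.951), against -0.504 to -0.033.

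From E18.5 to 2 wks 6 of the 9 genes rose (*Mfn1*, *Mfn2*, *Oma1*, *Fis1*, *Mff* and *Mief2*) and none fell. These adjusted p-values, as all others given for single genes, come from the quasi-likelihood test of edgeR, adjusted by Benjamini-Hochberg over all 19276 genes with a threshold of 0.05. Log2 fold changes are given ± their standard error. Of all genes tested 65.7% passed, 31.5% higher and 34.2% lower. From 2 to 7 wks 5 of the 9 rose (*Mfn1*, *Mfn2*, *Opa1*, *Oma1* and *Mff*), against 27.5% of all genes passing, 13.5% higher and 13.9% lower. From E18.5 to 7 wks 7 of the 9 rose, all but *Dnm1l* and *Mief1*, against 71.4% passing, 34.3% higher and 37.1% lower. The 3 comparisons share libraries and are not independent of each other. The p-values measure the spread between mice, since the labels give a mouse for each library. In a whole muscle more cells of a type and more RNA per cell cannot be told apart.

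**Figure D1:**
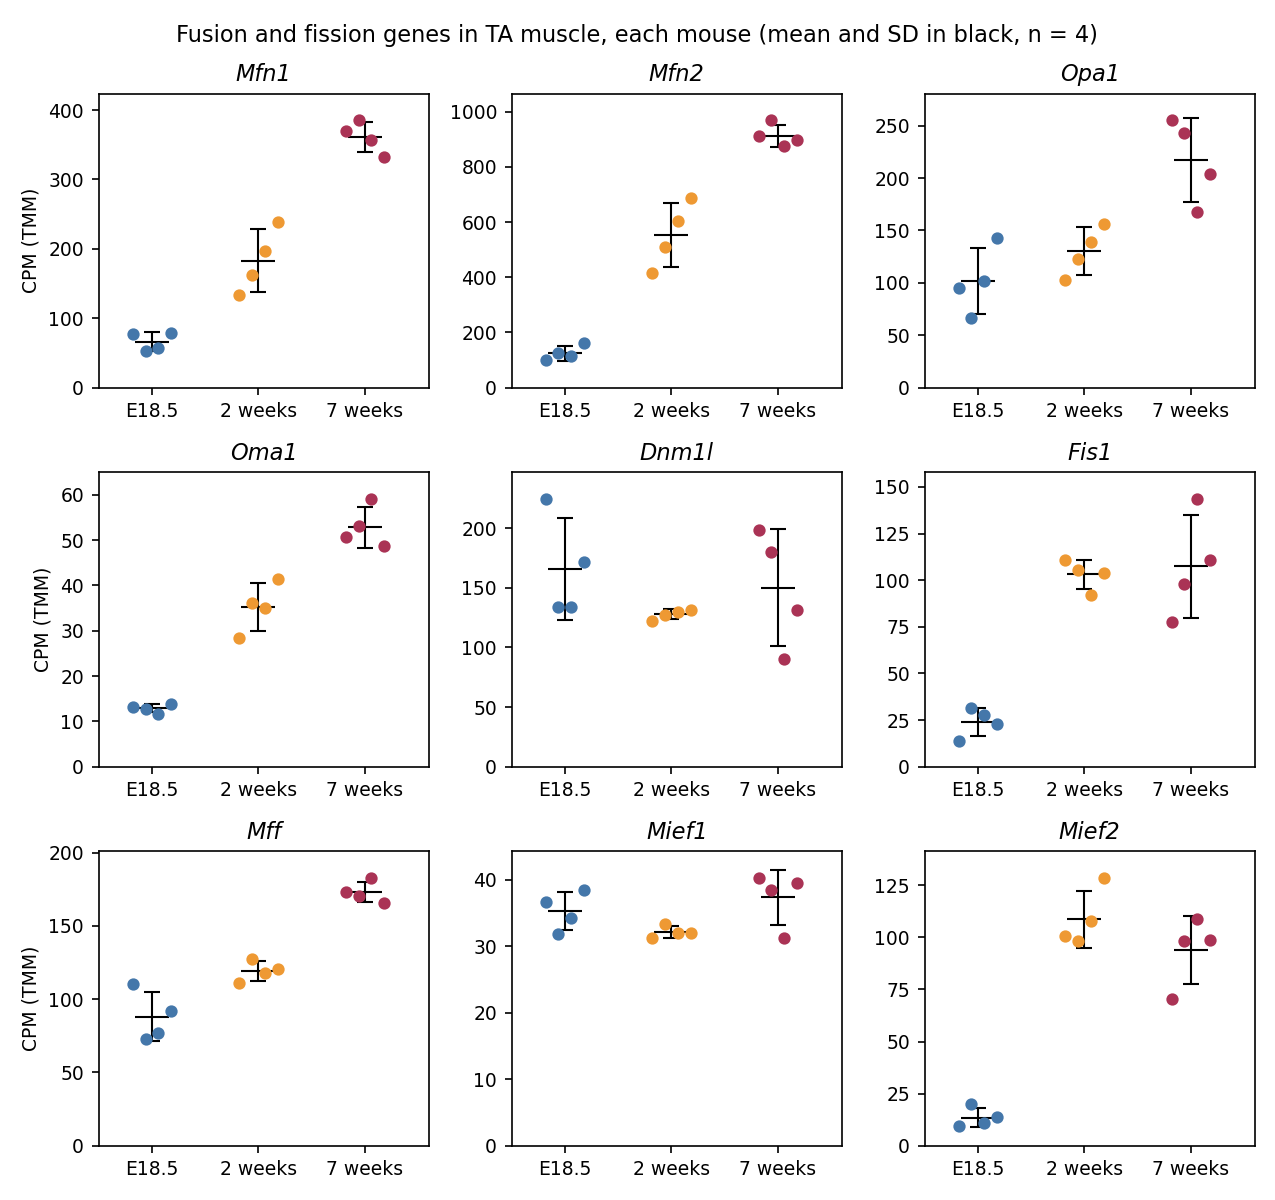
Level of each of the 9 genes in TA muscle by age, in CPM with TMM scaling, on axes that start at 0. Coloured points are single mice, the black dash and bar their mean and SD (n = 4 mice per age). The 3 ages do not overlap for *Mfn1*, *Mfn2*, *Oma1* and *Mff*. *Fis1* and *Mief2* step up between E18.5 and 2 wks, and for *Dnm1l* and *Mief1* the mice of 7 wks overlap with those of both younger ages.

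The mitofusin genes rose in both intervals. *Mfn2* was at 98.7, 126, 115 and 162 CPM in the 4 mice of E18.5, at 416, 509, 605 and 686 CPM at 2 wks, and at 912, 969, 876 and 897 CPM at 7 wks. *Mfn1* was at 76.8, 52.9, 56.8 and 79.2 CPM at E18.5, at 134, 162, 197 and 239 CPM at 2 wks, and at 369, 385, 357 and 333 CPM at 7 wks. For both genes every mouse of a later age was above every mouse of an earlier one, and at 2 wks the same mouse was lowest and the same mouse highest for both. From E18.5 to 2 wks *Mfn2* rose by 2.15 ± 0.20 on the log2 scale (adjusted p = 9.97e-07, edgeR) and *Mfn1* by 1.46 ± 0.19 (adjusted p = 2.28e-05, edgeR). From 2 to 7 wks *Mfn1* rose by 0.98 ± 0.19 (adjusted p = 0.00244, edgeR) and *Mfn2* by 0.72 ± 0.19 (adjusted p = 0.0123, edgeR). The change of *Mfn2* before 2 wks exceeded that after 2 wks by 1.42 (adjusted p = 0.00391 for the difference, edgeR), while for *Mfn1* the difference of 0.48 did not pass (adjusted p = 0.264, edgeR). For *Mfn1*, 40.4% of the annotated exon length is shared with *Gnb4* on the opposite strand, and for *Mfn2* 11.8% with *Fv1*. The library kit keeps the strand, but the strand setting of the counting is not given in the sources used here.

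*Opa1* passed in the second interval and not in the first. Its 4 mice were at 94.7, 66.7, 102 and 143 CPM at E18.5, at 103, 123.1, 139 and 156 CPM at 2 wks, and at 255, 243, 167 and 203 CPM at 7 wks. E18.5 and 2 wks overlapped, and all mice of 7 wks were above all younger ones. Its log2 change to 2 wks, 0.36 ± 0.22, did not pass (adjusted p = 0.161, edgeR), and that from 2 to 7 wks, 0.74 ± 0.22, did (adjusted p = 0.0247, edgeR). The second call was lost when 2 wks replicate 1 or 2 or 7 wks replicate 1 or 2 was left out (adjusted p = 0.0653 to 0.0895, edgeR), and the first passed without E18.5 replicate 4 (0.57, adjusted p = 0.0292, edgeR) and with the GC trend of each library taken out (0.80, adjusted p = 0.00346, edgeR). The 2 intervals did not differ for *Opa1* by the test of their difference (-0.37, adjusted p = 0.462, edgeR).

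*Oma1*, the protease that cuts OPA1, rose in both intervals. It was at 13.1, 12.8, 11.7 and 13.9 CPM at E18.5, at 28.4, 36.1, 34.99 and 41.3 CPM at 2 wks, and at 50.7, 53.0, 59.0 and 48.6 CPM at 7 wks. The ages did not overlap, and at E18.5 the spread between mice was small (12.9 ± 0.929 CPM, SD, n = 4). The log2 fold change was 1.45 ± 0.14 (adjusted p = 1.39e-06, edgeR) up to 2 wks and 0.59 ± 0.13 (adjusted p = 0.00628, edgeR) from then on. The first exceeded the second by 0.86 (adjusted p = 0.0105, edgeR), a call that was lost without 2 wks replicate 4 (adjusted p = 0.0528).

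*Dnm1l*, which encodes the fission GTPase itself, passed in no comparison with TMM. It was at 224, 134, 134 and 171 CPM at E18.5, at 122, 127, 130.0 and 131 CPM at 2 wks, and at 199, 180, 90.2 and 132 CPM at 7 wks. The mice of 2 wks were all below those of E18.5 and close to each other, and those of 7 wks overlapped with both. The log2 fold change was -0.38 ± 0.23 (adjusted p = 0.163, edgeR) to 2 wks, 0.23 ± 0.23 (adjusted p = 0.479, edgeR) from 2 to 7 wks and -0.14 over the whole time (adjusted p = 0.589, edgeR). Without E18.5 replicate 1, the library with the highest value, the first was -0.20 (adjusted p = 0.452) and the last 0.03. Of the exon length of *Dnm1l*, 49.3% is shared with *Yars2* on the opposite strand.

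The 4 genes of the DRP1 recruiting proteins divided into 2 that rose steeply, 1 that rose little and 1 that did not pass. *Mief2* was at 9.46, 19.9, 10.7 and 13.9 CPM at E18.5, at 101, 98.3, 108 and 128 CPM at 2 wks, and at 70.4, 98.4, 109 and 98.7 CPM at 7 wks. *Fis1* was at 13.8, 31.4, 27.8 and 22.9 CPM at E18.5, at 111, 106, 92.3 and 104 CPM at 2 wks, and at 77.6, 98.05, 143 and 111 CPM at 7 wks. For both genes all mice after birth were above all of E18.5, and the mice of 2 and 7 wks overlapped. *Mief2* rose by 3.01 ± 0.23 on the log2 scale to 2 wks (adjusted p = 2.63e-07, edgeR), an 8.05-fold change and the largest of the 9 genes, and *Fis1* by 2.10 ± 0.24 (adjusted p = 6.66e-06, edgeR). From 2 to 7 wks neither passed, with -0.21 for *Mief2* (adjusted p = 0.501, edgeR) and 0.06 for *Fis1* (adjusted p = 0.872, edgeR). The intervals differed by 3.22 for *Mief2* (adjusted p = 3.78e-05, edgeR) and by 2.04 for *Fis1* (adjusted p = 0.00158, edgeR). Without E18.5 replicate 1, which was the lowest for both, the first interval was 2.87 for *Mief2* and 1.91 for *Fis1*. *Mief2* shares 27.1% of its exon length with *Flii* on the opposite strand.

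*Mff* rose in small steps. Its mice were at 110.0, 72.8, 77.1 and 92.1 CPM at E18.5, at 111, 127, 118 and 120.4 CPM at 2 wks, and at 173, 171, 183 and 166 CPM at 7 wks, with no overlap between ages. The log2 fold change was 0.44 ± 0.14 (adjusted p = 0.0153, edgeR) to 2 wks and 0.54 ± 0.14 (adjusted p = 0.0131, edgeR) from 2 to 7 wks, and the 2 intervals differed by -0.10 (adjusted p = 0.762, edgeR). The first call was lost without E18.5 replicate 3 and the second without 2 wks replicate 1 (adjusted p = 0.0545). *Mief1*, whose protein is the closest relative of that of *Mief2*, was at 36.75, 31.9, 34.2 and 38.5 CPM at E18.5, at 31.3, 33.3, 32.0 and 32.1 CPM at 2 wks, and at 40.3, 38.5, 31.3 and 39.5 CPM at 7 wks. The ages overlapped throughout. Its log2 fold changes of -0.14 ± 0.12 (adjusted p = 0.334, edgeR) and 0.22 ± 0.12 (adjusted p = 0.199, edgeR) did not pass.

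Counted by overlap alone, 7 of the 9 genes did not overlap between E18.5 and 2 wks (6 higher and *Dnm1l* lower), where 61.3% of all genes did not. Between 2 and 7 wks 5 did not (33.7% of all genes), and between E18.5 and 7 wks 7 did not (63.4% of all). In both comparisons with E18.5 genes without overlap were thus common in the whole table.

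The directions of some members depended on the scaling. With total counts, *Mfn1* (0.52), *Mfn2* (1.2), *Oma1* (0.51), *Fis1* (1.17) and *Mief2* (2.08) still rose from E18.5 to 2 wks, while *Opa1* (-0.58), *Mff* (-0.49), *Dnm1l* (-1.30) and *Mief1* (-1.06) fell, all past the threshold in edgeR. With this scaling 13.2% of all genes rose and 61.9% fell. Relative to the median of all genes, which fell by 1.02 on the log2 scale, *Opa1* was 0.44 and *Mff* 0.53 above it, *Mief1* (-0.04) stood at it and *Dnm1l* (-0.28) below it. From 2 to 7 wks only *Mfn1* passed with total counts (0.65, adjusted p = 0.00948, edgeR), against 4.92% of all genes higher and 28.0% lower. From E18.5 to 7 wks the same 5 genes rose and *Dnm1l* (-1.41) and *Mief1* (-1.19) fell, against 11.9% of all genes higher and 69.0% lower.

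With the GC trend of each library taken out, 7 of the 9 genes passed from E18.5 to 2 wks (65.4% of all genes), *Opa1* being added with 0.80, 4 passed from 2 to 7 wks (32.6% of all), *Mff* being lost (adjusted p = 0.0538), and 7 from E18.5 to 7 wks (74.1% of all). *Mief2* then rose by 2.19 and *Fis1* by 1.73 in the first interval, less than before, and *Mff* by 1.06, more than before, while *Dnm1l* had 0.17 (adjusted p = 0.356, edgeR). The members differ in GC content, from 37.3% for *Mff* and 41.9% for *Dnm1l* to 52.8% for *Fis1* and 56.2% for *Mief2*, and the trend of all libraries of 2 wks favoured the GC-rich ones. At 7 wks *Dnm1l* was lowest and *Fis1* and *Mief2* highest in the same mouse, replicate 3, whose trend lowered *Dnm1l* (-0.286) and raised *Mief2* by 0.3.

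**Figure D2:**
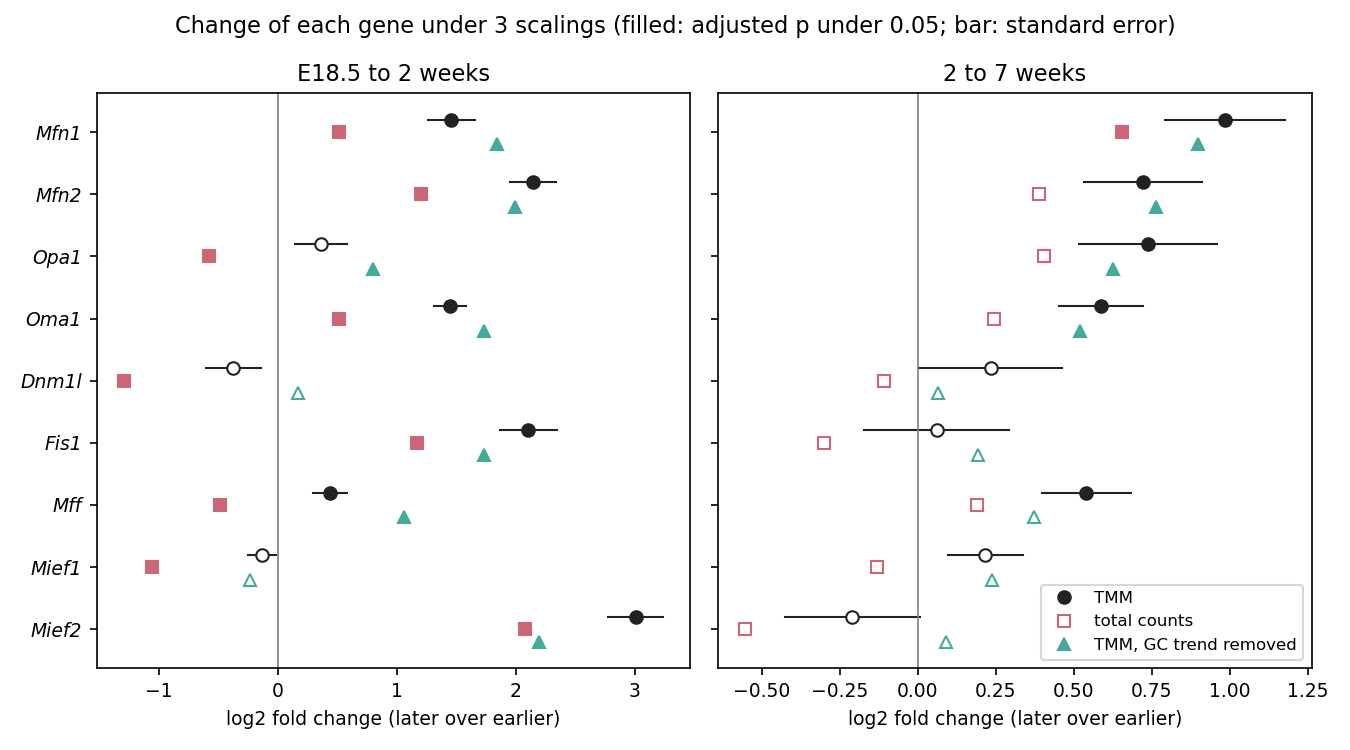
Log2 fold change (later over earlier age) of each gene from E18.5 to 2 wks and from 2 to 7 wks, with TMM scaling (black, bar: standard error), with total counts (red) and with the GC trend removed (green). Filled symbols passed an adjusted p of 0.05 (edgeR). Of the 9 genes, *Mfn1*, *Mfn2*, *Oma1*, *Fis1* and *Mief2* lie right of 0 in the first interval in all 3, and *Opa1*, *Mff* and *Dnm1l* change side.

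The difference between the intervals passed for 4 genes with TMM (*Mfn2*, *Oma1*, *Fis1* and *Mief2*, all with the larger rise before 2 wks), where 38.4% of all genes passed. With total counts 3 members passed higher and 4 lower, against 12.1% and 31.7% of all genes, and with the GC trend removed 6 passed, against 33.4%. *Fis1* and *Mief2* passed before 2 wks and not after it, and the mitofusins and *Oma1* passed in both intervals.

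Ratios of 2 genes within a library do not depend on its scaling, and 5 were compared in 3 comparisons of ages. They were tested with two-sided exact permutation tests over the 70 ways to divide 8 mice, adjusted over the 15 tests by Benjamini-Hochberg, and 0.0286 is the smallest p that 4 mice against 4 can give. It is reached when the 4 ratios of 1 age do not overlap with those of the other. Of single genes 61.3% did not overlap between E18.5 and 2 wks, 63.4% between E18.5 and 7 wks and 33.7% between 2 and 7 wks. The share among other pairs of genes was not computed, so a pass is not particular to these pairs. Per length of annotated exon, *Mief2* was at 0.576, 1.4, 0.701 and 0.807 times *Mief1* at E18.5, at 7.18, 6.59, 7.54 and 8.96 times at 2 wks, and at 3.91, 5.72, 7.76 and 5.59 times at 7 wks. The pair was near parity before birth in these libraries, and *Mief2* was the higher gene in all 8 mice after it. The ratio rose 9.15-fold from E18.5 to 2 wks (exact permutation p = 0.0286, adjusted p = 0.039), or 5.41-fold with the GC trend removed (adjusted p = 0.0476, exact permutation), and its change of -0.43 on the log2 scale from 2 to 7 wks did not pass (exact permutation p = 0.114, adjusted p = 0.122). The ratio of *Mff* to *Fis1* was at 2.25, 0.653, 0.778 and 1.13 at E18.5, at 0.282, 0.338, 0.358 and 0.326 at 2 wks, and at 0.628, 0.489, 0.358 and 0.42 at 7 wks. Which of these genes was higher at E18.5 depended on the length used. Per kb of the longest transcript, *Mff* (18.6 to 28.1 CPM) was above *Fis1* (6.77 to 15.4 CPM) in all mice of E18.5. The fold changes of the ratio do not depend on the length. The ratio of *Mff* to *Fis1* fell 3.28-fold from E18.5 to 2 wks (exact permutation p = 0.0286, adjusted p = 0.039), 2.3-fold from E18.5 to 7 wks (the same p-values), and its later rise of 0.51 on the log2 scale did not pass (exact permutation p = 0.0571, adjusted p = 0.0714).

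The ratio of the fission GTPase gene to the main mitofusin gene changed most over the whole time. *Dnm1l* was at 3.29, 1.54, 1.69 and 1.53 times *Mfn2* at E18.5, at 0.425, 0.362, 0.311 and 0.277 times at 2 wks, and at 0.316, 0.269, 0.149 and 0.213 times at 7 wks. *Dnm1l* was thus the higher gene of the 2 in all 4 mice before birth and the lower in all 8 after it. The ratio fell 5.61-fold to 2 wks (exact permutation p = 0.0286, adjusted p = 0.039) and 8.36-fold to 7 wks (the same p-values). Between 2 and 7 wks the log2 change of -0.58 did not pass (exact permutation p = 0.0857, adjusted p = 0.0989), and with the GC trend removed it was -0.75 and passed (adjusted p = 0.0476).

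*Opa1* fell against its protease gene. The ratio of *Opa1* to *Oma1* had a mean ± SD (n = 4) of 9.47 ± 2.61 before birth, 4.47 ± 0.291 in mice of 2 wks and 5.02 ± 1.15 in mice of 7 wks. It fell 2.06-fold to 2 wks (exact permutation p = 0.0286, adjusted p = 0.039) with no overlap between mice, and the change from 2 to 7 wks did not pass (0.14 on the log2 scale, exact permutation p = 0.514, adjusted p = 0.514). *Mfn2* was at 2.46 ± 0.586 times *Mfn1* before birth, at 3.9 ± 0.155 times in mice of 2 wks and at 3.23 ± 0.142 times in mice of 7 wks (mean ± SD, n = 4 each). All 3 comparisons of this pair passed (exact permutation p = 0.0286, adjusted p = 0.039 each), and none did with the GC trend removed, with log2 changes of 0.17, -0.15 and 0.02 (adjusted p = 0.117, 0.143 and 0.686, exact permutation). With the trend removed the falls or rises from E18.5 of the other 4 ratios still passed (adjusted p = 0.0476 each, exact permutation), and all 4 were smaller. The ratio of *Dnm1l* to *Mfn2* then fell 3.53-fold to 2 wks and 5.95-fold to 7 wks, that of *Mff* to *Fis1* 1.62-fold and 1.43-fold, and that of *Opa1* to *Oma1* 1.86-fold and 1.72-fold, while that of *Mief2* to *Mief1* was 4.9-fold higher at 7 wks than at E18.5.

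**Figure D3:**
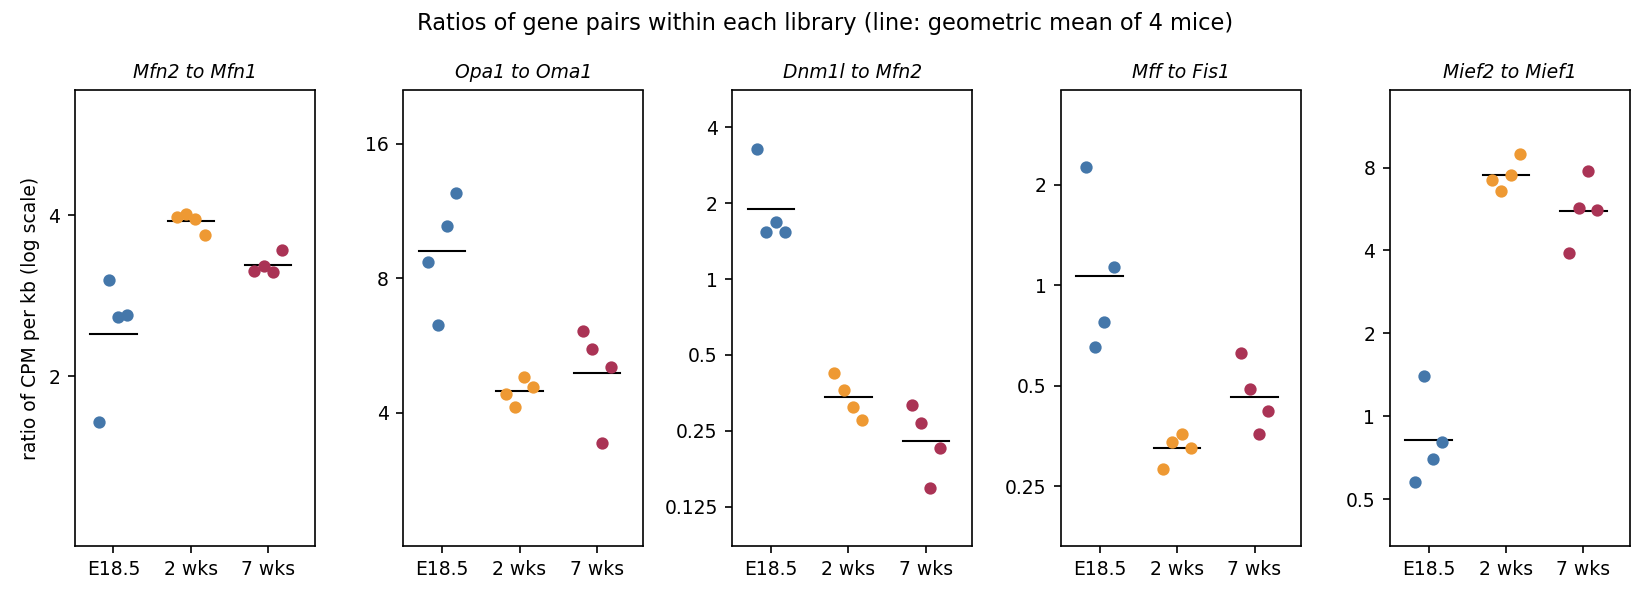
Ratios of gene pairs within each library, as levels per kb of exon on a log axis, by age (points: mice, lines: geometric means, n = 4). The ratio of *Mief2* to *Mief1* lies below 1.5 in the mice of E18.5 and above 3 after birth, and that of *Dnm1l* to *Mfn2* above 1.5 and below 0.5.

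The order of the genes changed with age. As CPM per kb of exon, which is the scale on which levels of different genes were compared, *Dnm1l* was highest at E18.5 (22.8 ± 5.87, SD, n = 4) and above every value of *Mfn2* (11.9 ± 2.54), and *Mfn2*, *Opa1*, *Mff*, *Fis1* and *Mfn1* (4.93 ± 1.003) followed, each overlapping with the next. *Mief1* (3.53), *Mief2* (3.01) and *Oma1* (1.15) were lowest, and the first 2 of these overlapped. At 2 wks *Mfn2* led (52.5 ± 11.1), followed without overlap by *Fis1* (33.1 ± 2.504) and *Mief2* (24.3 ± 3.06), and *Dnm1l* came next (17.5 ± 0.564). *Opa1*, *Mfn1* and *Mff* followed, each overlapping with the gene before it, and *Mief1* (3.21) and *Oma1* (3.14) were lowest and overlapped. At 7 wks *Mfn2* (86.5 ± 3.798) stood apart from all others, *Fis1* (34.5), *Mfn1* (26.8), *Opa1* (23.4), *Mief2* (21.0), *Dnm1l* (20.6) and *Mff* (15.6) formed a run of overlapping neighbours, and *Oma1* (4.72) and *Mief1* (3.73) came last without overlap. Of the 108 orders of 2 genes at an age, 97 were the same when the length of the longest transcript was used. The place of *Mff* after birth depended on the length. Per kb of the longest transcript, *Mff* at 2 wks (28.3 to 32.5) was above every value of *Dnm1l* (highest 23.4), *Opa1* (21.95) and *Mfn1* (26.5). At 7 wks *Mff* (42.3 to 46.6) was above every value of *Opa1* (highest 35.8), *Dnm1l* (35.35) and *Mief2* (33.3).

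As a share of the 9 genes per length, the mean of *Mfn2* was 16.1% before birth, 30.2% in mice of 2 wks and 36.5% in mice of 7 wks, and that of *Dnm1l* 30.7%, 10.3% and 8.67%. Among the 4 adaptor genes alone, *Fis1* had a mean of 34.3% (22% to 41.5%) before birth, 46.4% (43.8% to 50%) in mice of 2 wks and 45.6% (41.3% to 51.2%) in mice of 7 wks. *Mief2* had 13.4% (10.5% to 18.3%), 34.0% (31.0% to 37.7%) and 28.0% (26.0% to 30.2%). In turn *Mff* had 36.3% (27.1% to 49.3%), 15.1% (14.1% to 16.3%) and 21.3% (18.3% to 26.0%), and *Mief1* had 13.1% to 18.2%, 4.21% to 4.72% and 3.47% to 6.66%. The shares of *Mief2*, *Mff* and *Mief1* did not overlap between the mice of E18.5 and those of either later age. Lack of overlap was common, since levels of 61.3% of all genes did not overlap between E18.5 and 2 wks, and 63.4% between E18.5 and 7 wks. The 4 shares add up to the whole, so they are not independent of each other. Shares within other sets of genes were not computed. On the length of the longest transcript *Mff* was the largest of the 4 at E18.5 (51.2%) and *Fis1* at 2 wks (42.4%) and 7 wks (39.6%).

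**Figure D4:**
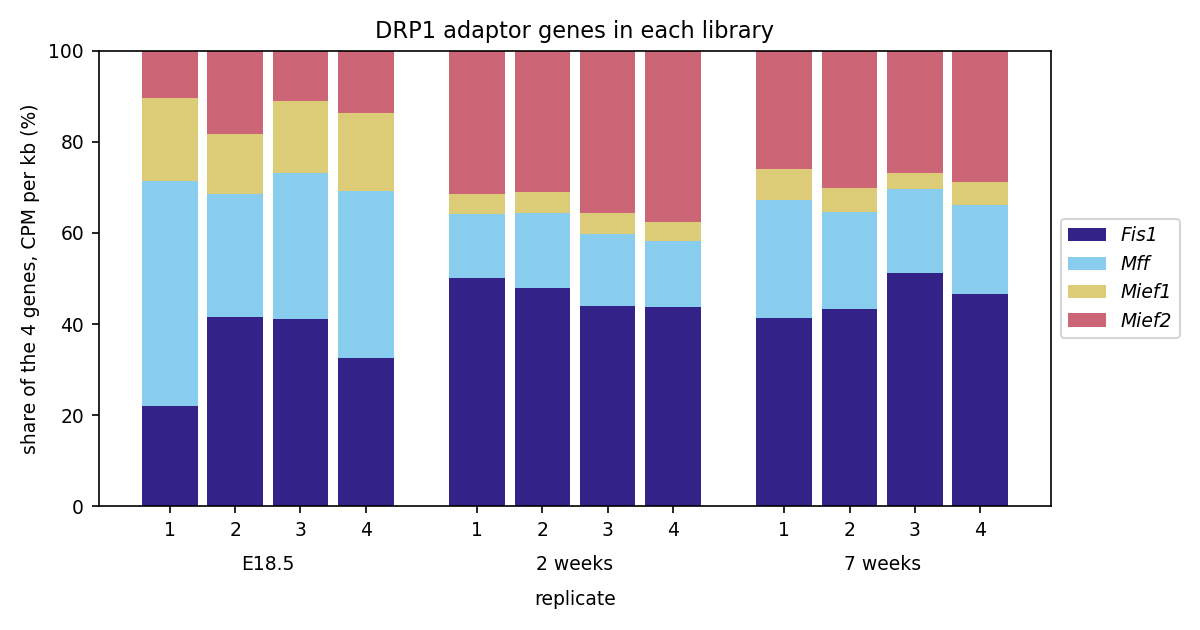
Share of each of the 4 genes for DRP1 recruiting proteins in their summed level per kb of exon, in percent, for each of the 12 libraries. *Mief2* is 10.5% to 18.3% of the sum at E18.5 and 26.0% to 37.7% after birth, and *Mff* is 27.1% to 49.3% before and 14.1% to 26.0% after.

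To see how the members moved beside other mitochondrial genes, 12 genes of the outer and inner membrane, import and matrix (*Cs*, *Vdac1*, *Vdac2*, *Vdac3*, *Tomm20*, *Tomm22*, *Tomm40*, *Tomm70a*, *Timm23*, *Timm44*, *Hspd1* and *Hspa9*) served as a reference. With TMM 11 of the 12 passed from E18.5 to 2 wks (9 higher and 2 lower, median 0.93) and 3 from 2 to 7 wks (all higher). Of all genes 65.7% passed in the first interval and 27.5% in the second. *Vdac1*, a channel of the outer membrane, rose by 1.91 and *Timm44*, of the import motor, by 1.62, while the chaperone gene *Hspd1* fell by 1.03 and the import receptor gene *Tomm70a* by 0.44 (0.10 with the GC trend removed, which did not pass). Against the mean log2 level of these 12 genes in the same library, *Mief2* gained 2.26, *Fis1* 1.37 and *Mfn2* 1.34 from E18.5 to 2 wks, and *Mfn1* gained 0.65 and *Oma1* 0.64. *Mff* (-0.35), *Opa1* (-0.40), *Mief1* (-0.93) and *Dnm1l* (-1.15) did not keep up with it. These are values per pair of group means, given without a test. With total counts 3 reference genes rose and 5 fell in the first interval (13.2% and 61.9% of all genes), so the direction of the reference depended on the scaling. The differences from it are the same with TMM and with total counts, but not with the GC trend removed. *Mff* then rose by 1.06, above the reference median of 0.98, whereas with TMM its rise of 0.44 was below the median of 0.93.

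Other genes of mitochondrial dynamics were taken from 5 lists of 37 genes in all, of which all 37 were tested. With TMM 29 of them passed from E18.5 to 2 wks (22 higher, 7 lower, median log2 fold change 0.92 against -0.09 over all genes) and 8 from 2 to 7 wks (7 higher, 1 lower, median 0.35 against -0.03). With total counts 9 rose and 14 fell in the first interval (median -0.02, against -1.02 over all genes), so most of the rises depended on the scaling. From 2 to 7 wks 2 rose and 2 fell with total counts. With the GC trend removed 26 passed in the first interval (22 higher, 4 lower) and 16 in the second (15 higher, 1 lower), against 29 and 8 with TMM. The shares of all genes passing were 65.7% and 27.5% with TMM, and 65.4% and 32.6% with the trend removed.

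Of 8 genes for inner membrane proteases and their scaffolds 7 rose to 2 wks and 1 fell, where 31.5% of all genes rose and 34.2% fell. With total counts 2 rose and 1 fell. *Spg7*, a subunit of the m-AAA protease, rose by 2.07 (adjusted p = 3.75e-06, edgeR) and *Opa3* by 1.66 (adjusted p = 6.24e-07, edgeR), both also with total counts (1.12 and 0.73). *Yme1l1*, whose product is the other protease that cuts OPA1, went from 134 ± 34.4 CPM (SD, n = 4) to 69.2 ± 1.61 CPM (SD, n = 4) and fell by 0.95 (adjusted p = 0.000756, edgeR). With total counts it fell by 1.88, and by 0.34 once the GC trend was taken out, past the threshold each time. *Oma1* and *Yme1l1* thus moved in opposite directions in that interval under all 3.

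Among 14 other fission factors 6 rose and 3 fell to 2 wks, a share near the 65.7% of all genes that passed. With total counts 3 rose and 8 fell. The inner membrane gene *Mtfp1* was at 3.05, 4.26, 4.18 and 6.83 CPM at E18.5, at 69.7, 77.0, 78.5 and 102 CPM at 2 wks and at 63.5, 83.0, 105 and 79.8 CPM at 7 wks. It thus stepped up with *Mief2* and *Fis1* and overlapped after 2 wks. It rose by 4.16 to 2 wks (adjusted p = 3.79e-08, edgeR), by 3.22 with total counts, and had 0.02 after that (adjusted p = 0.965, edgeR). The ubiquitin ligase gene *Mul1* rose by 2.06, and *Mtfr2* fell by 1.41 and then by 3.20, from 3.26 ± 0.618 CPM before birth to 0.132 ± 0.0810 CPM in mice of 7 wks (SD, n = 4 each), with 4 to 16 counts in a library. *Gdap1* rose in both intervals, by 2.04 and 1.47, and *Mtfr1* in the second by 1.03.

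Of 4 other fusion factors *Usp30* rose by 0.70 to 2 wks, a call lost with total counts (-0.24, adjusted p = 0.305, edgeR) and with the GC trend removed (0.07, adjusted p = 0.621). *Miga1* fell by 0.62 (-0.17 with the GC trend removed, which did not pass) and then rose by 0.64 (0.32 with total counts, which did not pass), and *Pld6* fell from 20, 29, 140 and 177 counts at E18.5 to 2, 8, 2 and 5 counts at 2 wks (adjusted p = 0.00276, edgeR). *Pld6* was kept by the filter on low counts through its E18.5 libraries alone, so a fall was the only call open to it. Of the 4 genes that link mitochondria to motors *Trak1* rose by 2.12, *Rhot2* by 2.07 and *Trak2* by 1.2 to 2 wks, whereas *Rhot1*, the paralogue of *Rhot2*, had -0.18 (adjusted p = 0.272, edgeR). The direction of *Rhot1* turned with the scaling, since it rose by 0.25 with the GC trend removed (adjusted p = 0.0306, edgeR) and had -1.10 with total counts (adjusted p = 1.44e-05, edgeR). Of 7 genes of the MICOS complex, which holds the crista junctions, 5 rose, led by *Apoo* (1.54) and *Micos10* (1.51), 1 fell (*Chchd6*, -1.01, and -0.76 with the GC trend removed, adjusted p = 0.102) and *Apool* had 0.01 (adjusted p = 0.966, edgeR). *Apool* too passed in opposite directions, with 0.60 once the GC trend was removed (adjusted p = 0.00244, edgeR) and -0.92 with total counts (adjusted p = 0.000278, edgeR). None of the 7 passed from 2 to 7 wks with edgeR, where 27.5% of all genes passed. To 2 wks 31.5% of all genes rose and 34.2% fell.

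**Figure D5:**
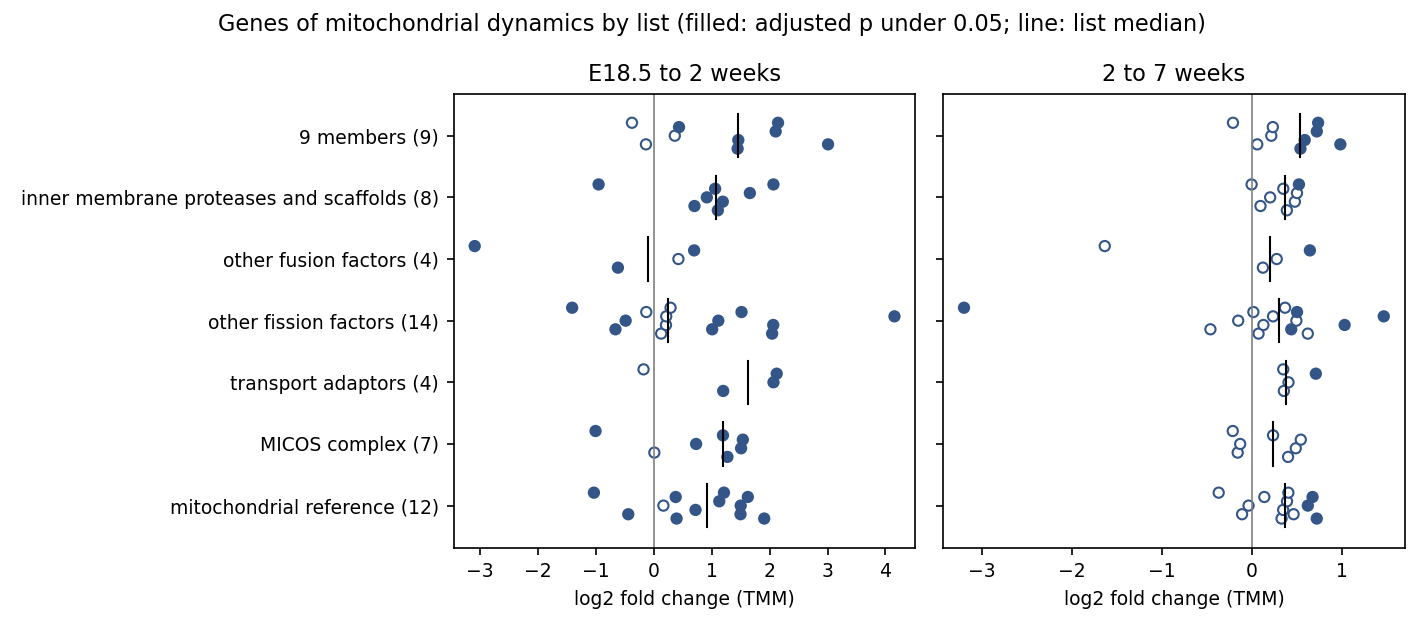
Log2 fold change (TMM) from E18.5 to 2 wks and from 2 to 7 wks for the 9 members and for 6 lists of other mitochondrial genes, with the number of genes in brackets. Each point is a gene, filled where it passed an adjusted p of 0.05 (edgeR), and lines are list medians. Most filled points of the first interval lie right of 0 and few points of the second are filled.

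By the root mean square difference of log2 CPM over the 12 libraries, each gene centred on its own mean, the gene most like *Mfn2* among 11431 was *Gys1* (0.099) and the next *Dcaf11* (0.162), against a median of 1.21 over all genes. The nearest to *Mfn1* were *Dcaf6* (0.13) and *Kcmf1* (0.156), to *Opa1* *Fam210a* and *Mmut* (0.134 each), and to *Oma1* *Nkiras1* (0.101) and *Gnb5* (0.128). *Dnm1l* was nearest to *Mob1b* (0.114) and *Ythdf3* (0.116), *Fis1* to *Chrac1* (0.107) and *Lamtor1* (0.119), *Mff* to *Eloc* (0.067) and *Polr2k* (0.074), *Mief1* to *Stx12* (0.085) and *Sptlc1* (0.086), and *Mief2* to *Tpm2* (0.156) and *Ip6k3* (0.165). Among the members themselves the most alike were *Mfn1* and *Oma1* (0.256) and *Dnm1l* and *Mief1* (0.261), and the least alike *Dnm1l* and *Mief2* (1.611). These are descriptions of pattern over libraries that share their ages and GC trends.

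The make-up of the tissue moved with age beside these genes. All 6 markers of muscle fibres rose from E18.5 to 2 wks and 3 rose further to 7 wks, against 31.5% and 13.5% of all genes. Of the 6 markers each, 6 of fibroblasts, 5 of macrophages, 5 of adipocytes, 5 of red blood cells and 4 of cartilage and bone fell from E18.5 to 7 wks, and 2 of endothelium rose. Of all genes 34.3% were higher and 37.1% lower in that comparison, so the rises of endothelium markers and the falls of nerve markers were near these shares. In the order of the ages, summed levels of fibroblast markers were 5963 to 12270 CPM, 4466 to 6128 and 971 to 4080, those of macrophages 163 to 202, 67.7 to 93.3 and 18.1 to 61.9, and those of adipocytes 178 to 2693, 421 to 486 and 311 to 415. Red blood cell markers summed to 235 to 1005 CPM, 138 to 720 and 88.2 to 128, cartilage and bone to 24.1 to 152, 3.79 to 22.8 and 2.82 to 6.90, and epidermis (5 of 6 tested, 1 falling over the whole time) to 6.77 to 35.6 before birth and at most 18.6 after it. Nerve markers summed to 155 to 263, 147 to 682 and 110.1 to 165 CPM (1 rose and 2 fell over the whole time) and those of endothelium to 327 to 491, 826 to 966 and 523 to 778. No marker was at 0 in all libraries, and the part of these shifts in the changes of the fusion and fission genes was not tested.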

How the data were processed

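Libraries were made by the authors with a stranded mRNA kit and read as paired ends. Per the labels, reads were processed with bcl2fastq 2.17.1.14, cutadapt 1.10, STAR 2.5.3a and HTSeq 0.6.1p1 on mm10, while the methods of the study name GRCm39 and a transcript quantification that was not used here. The authors deposited raw counts of reads on each gene, with Ensembl identifiers. Which build and annotation the counting used is therefore open, and coordinates are given for sequences of RefSeq's GRCm38.p6 table alone. Exon lengths, GC content and overlaps come from GENCODE vM39, which holds 51477 of the 55450 genes. The other 3973 took 0.0394% of the counts.

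Counts were filtered with filterByExpr (19276 genes kept, 36174 removed), scaled with TMM and fitted over all 12 libraries with age as the only term in edgeR 4.0.16 (R 4.3.3, limma 3.58.1). The quasi-likelihood test was adjusted by Benjamini-Hochberg, with a threshold of 0.05, and the biological coefficient of variation was 0.279. Ratios within a library were tested with exact permutation tests in scipy 1.17.1, with figures by matplotlib 3.10.9. No 2 libraries of an age were copies (chi-square over genes, divided by its degrees of freedom, 34.3 to 577 in 18 pairs). Alternatives were scaling to total counts or to the upper quartile, TMM without the 37 genes of the mitochondrial genome and the top 20 genes, DESeq2 1.42.0, other filters, trends over GC content and length removed by lowess, the replicate block, 8 libraries only, and each library left out. The procedure was run on simulated counts with a small set of genes changed, as many up as down. Those counts lacked the large shift in abundant genes seen here, so they do not test the choice of scaling. The 9 members and all lists were chosen with earlier results of these data known. Named were all members, up to 2 rises and 2 falls per list and interval, genes that a background sentence concerns, and the 2 most similar genes per member above a mean log2 CPM of 1.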

Additional observations from a re-analysis of the deposited data

Results flagged for a closer look

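In 1 of 42 sets of 4 libraries examined (27 of single genes and 15 of ratios) a mouse lay far from the other 3 of its age, where chance gives about 2.1. At E18.5 the ratio of *Dnm1l* to *Mfn2*, per length, was 3.29 in replicate 1 against 1.53 to 1.69 in the others. This library also had the strongest trend over GC content.

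For 4 genes the change from E18.5 to 2 wks differed from that from 2 to 7 wks by the test of the difference itself (edgeR, quasi-likelihood, adjusted by Benjamini-Hochberg). The first exceeded the second by 1.42 on the log2 scale for *Mfn2*, by 0.86 for *Oma1*, by 2.04 for *Fis1* and by 3.22 for *Mief2*. All 4 mice of 2 wks were above all 4 of E18.5 for each of these genes. Of all genes 38.4% passed the same test. The number of members that passed was 6 with the GC trend removed and 7 with total counts, 3 higher and 4 lower. With total counts the difference of *Oma1* was 0.27 and did not pass (adjusted p = 0.336).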

How the results depend on the processing

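With total counts 1 member instead of 5 passed from 2 to 7 wks, and 7 instead of 4 in the difference of the intervals (3 higher, 4 lower). From E18.5 to 2 wks 6 passed with TMM. There 5 passed with upper-quartile scaling, without the filter on low counts, and with at least 10 counts in every library. With the GC or the length trend removed 7 passed, and with total counts 9 (5 higher, 4 lower). Leaving out a library in turn gave 5 to 7 members from E18.5 to 2 wks, 3 to 5 from 2 to 7 wks (fewest without 2 wks replicate 1), 7 to 7 from E18.5 to 7 wks and 3 to 4 for the difference. Replicate numbers are shared between ages but stand for different mice. The deviations of libraries with the same number had correlations of -0.283 to 0.514 over 12 pairs, against -0.5 to 0.382 over 36 others. The highest, 0.514, was between E18.5 replicate 1 and 7 wks replicate 1. With the replicate number as a block 6, 5, 7 and 4 members passed, as without it. With the GC trend removed the ratio of *Mfn2* to *Mfn1* no longer passed (0.17, -0.15 and 0.024), and that of *Dnm1l* to *Mfn2* passed from 2 to 7 wks (-0.75).

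Directions turned as follows. With total counts these were *Opa1* (-0.58 to 2 wks, -0.17 from E18.5 to 7 wks), *Mff* (-0.49 and -0.30), *Mief1* (-0.13 from 2 to 7 wks, -1.19 from E18.5), *Dnm1l* (-0.11) and *Fis1* (-0.30) from 2 to 7 wks, and the difference of *Mfn1* (-0.14). With the GC trend removed these were *Dnm1l* (0.17 to 2 wks, 0.23 from E18.5 to 7 wks, 0.10 in the difference), *Opa1* (0.17) and *Mff* (0.69) in the difference, and *Mief2* from 2 to 7 wks (0.089). With the length trend removed they were *Mief1* to 2 wks (0.13) and *Opa1* in the difference (0.028). Upper-quartile scaling gave *Fis1* -0.044 from 2 to 7 wks and *Mief1* -0.17 from E18.5 to 7 wks, and *Mief1* had -0.084 with at least 10 counts in every library and -0.015 with the 8 libraries of the ages alone. Without a library, *Dnm1l* from E18.5 to 7 wks was 0.03 (E18.5 replicate 1) or 0.047 (7 wks replicate 3), *Fis1* from 2 to 7 wks was -0.11 (7 wks replicate 3), between -0.11 and 0.19 in all, and the difference of *Mff* was 0.020 (E18.5 replicate 1) or 0.001 (2 wks replicate 1), and lowest at -0.18. Of the values of single genes, 309 kept direction and side of the threshold across the settings other than leaving out a library, and 12 became and 9 ceased to be significant. When a library was left out, 419 kept both, 1 became and 7 ceased to be significant. Ratios without a library were not tested, and their 120 values kept direction and moved by less than the SD between mice.

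Members had between 1365 and 62413 counts in a library. With 4 mice an age and TMM, small changes to 2 wks passed for *Mff* (0.44) and not for *Opa1* (0.36). Opposite-strand overlaps (*Gnb4*, *Yars2*, *Flii*) could not be separated here.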
